A study of Mus musculus with 30 samples.

Results

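The nuclear genes for subunits of oxidative phosphorylation were followed in the hippocampus of mice fed methylmercury (MeHg), with and without added selenium. A gene was taken as a member when its Ensembl identifier carried a symbol of the families Ndufa, Ndufb, Ndufc, Ndufs or Ndufv, Sdha to Sdhd, Uqcr, Cox4 to Cox8 or Atp5, and pseudogene symbols were left out. This gave 85 members among 21412 genes. Of these, 37 belonged by name to complex I, 4 to complex II, 8 to complex III, 17 to complex IV and 15 to complex V. The other 4 matched the rule by name and are not subunits: Cox4nb, an older name of a gene of the endoplasmic reticulum membrane complex, Atp5s and Atp5sl, whose products act in mitochondria outside the enzyme, and Atp5l2, which the annotation lists as a pseudogene. Male BALB/c mice arrived at 2 to 3 weeks of age, were acclimatized for 5 days and ate AIN-93G feed for 11 weeks, housed singly. Ctr mice had no MeHg added to the feed, LD mice ate 0.28 mg and HD mice 5 mg MeHg per kg feed. The Se_Ctr, Se_LD and Se_HD groups carry the same names with selenium, which the series title gives as selenium-methionine. Their selenium dose is not given in the sources used here, nor is it stated that their MeHg doses were those of LD and HD. Each of the 6 groups had 5 libraries, numbered here in accession order, and the deposited values are normalized counts, that is reads per gene divided by a size factor of the library. Each library was made from its own RNA sample, and no label ties a sample to a mouse, so the p-values measure the spread between these libraries.

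Oxidative phosphorylation passes electrons from NADH through complex I, and from succinate through complex II, to complex III and by cytochrome c to complex IV, which reduces oxygen. Complexes I, III and IV pump protons across the inner mitochondrial membrane, and complex V, the ATP synthase, makes ATP as the protons flow back. All subunits of complex II and most of the others are encoded in the nucleus, while a small core set is encoded in mitochondrial DNA. Neurons depend on this pathway for the ATP that drives ion pumps at synapses.

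The members were abundant and spanned a wide range. Per kb of exon and averaged over the 30 libraries, the median level was 384 normalized counts for complex I, 424 for complex II, 692 for complex III, 442 for complex IV and 424 for complex V, against 94.1 for the 4 genes that are no subunit. Cox4i1, the ubiquitous form of a regulatory subunit of complex IV, was highest at 4398 normalized counts per kb. Ndufa4, named after complex I but now regarded as a subunit of complex IV, followed at 3530, and Cox6b1, a complex IV subunit on the intermembrane side, at 3064. Among the 8 reference subunits chosen, the ATP synthase beta chain Atp5b stood at 1288 per kb, the flavoprotein Sdha of complex II at 767, the core protein Uqcrc1 of complex III at 516, the NADH-binding Ndufv1 at 384, the Rieske iron-sulphur protein Uqcrfs1 at 369, the iron-sulphur subunit Sdhb at 319, the iron-sulphur subunit Ndufs1 of complex I at 275 and Cox5a of complex IV at 153. The lower end was held by forms that are best known from muscle, hypoxia or testis, such as Cox6a2 at 14.4, Ndufa4l2 at 14.2, Cox4i2 at 9.89 and Cox7b2 at 1.09. Averaged over all libraries, 81 members reached 10 normalized counts and 4 did not. Together the members took between 0.622 and 0.935% of the normalized counts of a library.

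**Figure D1:**
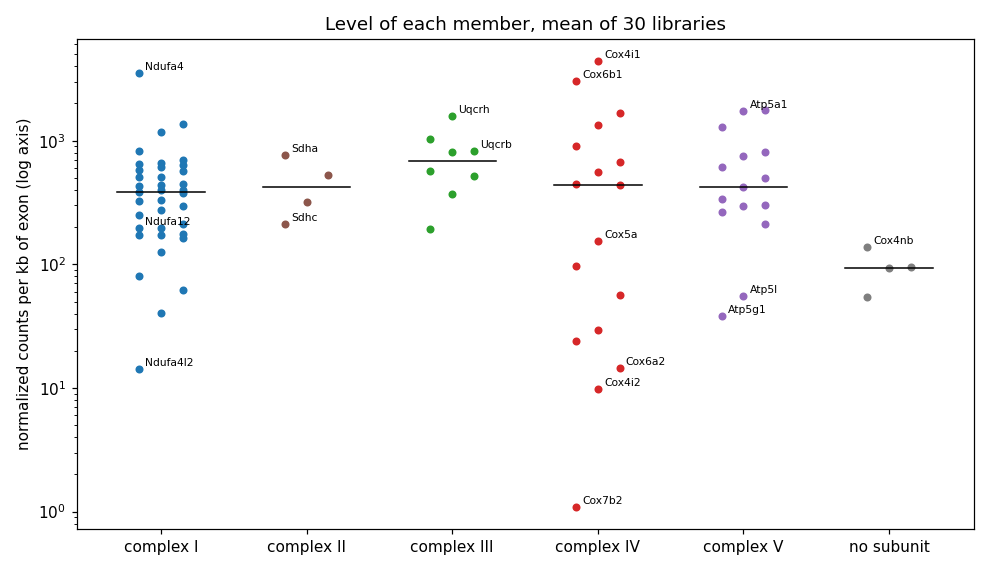
The level of each of the 85 members, as the mean of 30 libraries in normalized counts per kb of exon on a log axis, is shown by complex, with a black line at the median of each. Complex IV spans the widest range, from 1.09 for Cox7b2 to 4398 for Cox4i1.

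Several of these levels may not be those of the gene alone. In the NCBIM37 genome, 31 of the 84 members with a protein-coding transcript had at least one 75-base window, the read length, with an exact copy elsewhere, and 13 had copies of over 20% of their windows. All 573 windows of Atp5g2, a proteolipid subunit of complex V, had a copy, as did 85.8% of those of Atp5l, 50.6% of Cox5b, 43.0% of Uqcrb and 22.2% of Ndufa12. The median level was 214 normalized counts per kb over the 13 and 380 over the 53 members with no copied window. How reads with several hits were counted is not given in the sources used here. Exons of 19 members also overlapped those of another gene, on the other strand for 18 of them, among them 38.7% of the exons of Cox5a, a complex IV subunit at 153 normalized counts per kb. The levels of these members, and differences between groups where the other locus differs too, are therefore uncertain.

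The question of the first comparison was whether the higher MeHg dose changed expression, and for these genes no change passed the test. A gene was called, following the study's order of tests, when the F test over Ctr, LD and HD and the contrast both had an unadjusted p under 0.05 in limma on log2(normalized count + 1), the scale of all fold changes given here. None of the 84 members tested was called in HD against Ctr, while 5.09% of all genes tested were called. At an unadjusted contrast p under 0.05 there was 1 member, Uqcrb, and none had an adjusted p under 0.05. edgeR and DESeq2 on the recovered reads each called 1 member, Ndufa12. The median log2 fold change of the members was 0.04, beside 0.01 for all genes, and 52 members were higher and 32 lower in HD. In the same libraries all 14 microglia markers and all 8 reactive astrocyte markers of lists written for this work were called higher, with median log2 fold changes of 1.09 and 1.37. The summed microglia markers lay between 3281 and 3596 normalized counts in Ctr and between 4253 and 10720 in HD. All 10 choroid plexus markers were higher in HD with a median of 1.45, none called and 2 at an unadjusted contrast p under 0.05, and all 6 erythrocyte markers were lower with a median of -0.60, none called and 0 at that p. Of 8 inhibitory neuron markers 7 were lower, and Gad1 and Pvalb were called at -0.45 and -0.59, with summed levels of 5356 to 6368 in Ctr and 4231 to 5442 in HD. Of 6 thalamus markers 4 were higher and 2 lower with a median of 0.13, and Synpo2 was called at 0.90. Of 8 excitatory neuron markers 4 were higher and 4 lower with a median of -0.04. All 9 astrocyte markers were higher with a median of 0.22, and Aqp4 and Aldh1l1 were called at 0.97 and 0.49. The part of these markers in the members' values was not tested.

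The medians of the complexes lay near 0, while single members went both ways. In HD against Ctr, complex I had a median log2 fold change of 0.06 over 37 members with a range from -0.20 to 0.31, complex II one of 0.07 over 4, complex III one of -0.00045 over 8 from -0.26 to 0.33, complex IV one of 0.02 over 16 from -0.37 to 0.64 and complex V one of 0.05 over 15 from -0.19 to 0.15. The highest were low isoform genes of complex IV with wide errors, Cox8b at 0.64 ± 0.76, Cox4i2 at 0.56 ± 0.51 and Cox7a1 at 0.46 ± 0.35, none of them called. Sdha, the most evenly expressed member, had 2959, 2989, 2916, 2675 and 2955 normalized counts in Ctr and 2881, 2724, 3087, 2857 and 2633 in HD. The groups overlapped, and the log2 fold change was -0.03 ± 0.08 (SE, n = 5 per group; adjusted p = 0.951, limma). Atp5b had a log2 fold change of -0.07 ± 0.10, Ndufs1 of -0.05 ± 0.08, Ndufv1 of -0.08 ± 0.11, Sdhb of 0.08 ± 0.12 and Cox5a of 0.03 ± 0.18. Uqcrc1 stood at -0.18 ± 0.14 and Uqcrfs1 at -0.26 ± 0.17, the lowest of the 8 reference subunits chosen, with unadjusted p of 0.213 and 0.137.

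The precision limits what such values can exclude. The median half-width of the 95% interval in HD against Ctr was 0.27 log2 units. The interval lay wholly within a 1.5-fold change either way for 67 of the 84 members and within 2-fold for 79. The interval of Cox8b, a low form of a small complex IV subunit best known from heart and muscle, reached from -0.94 to 2.21.

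**Figure D2:**
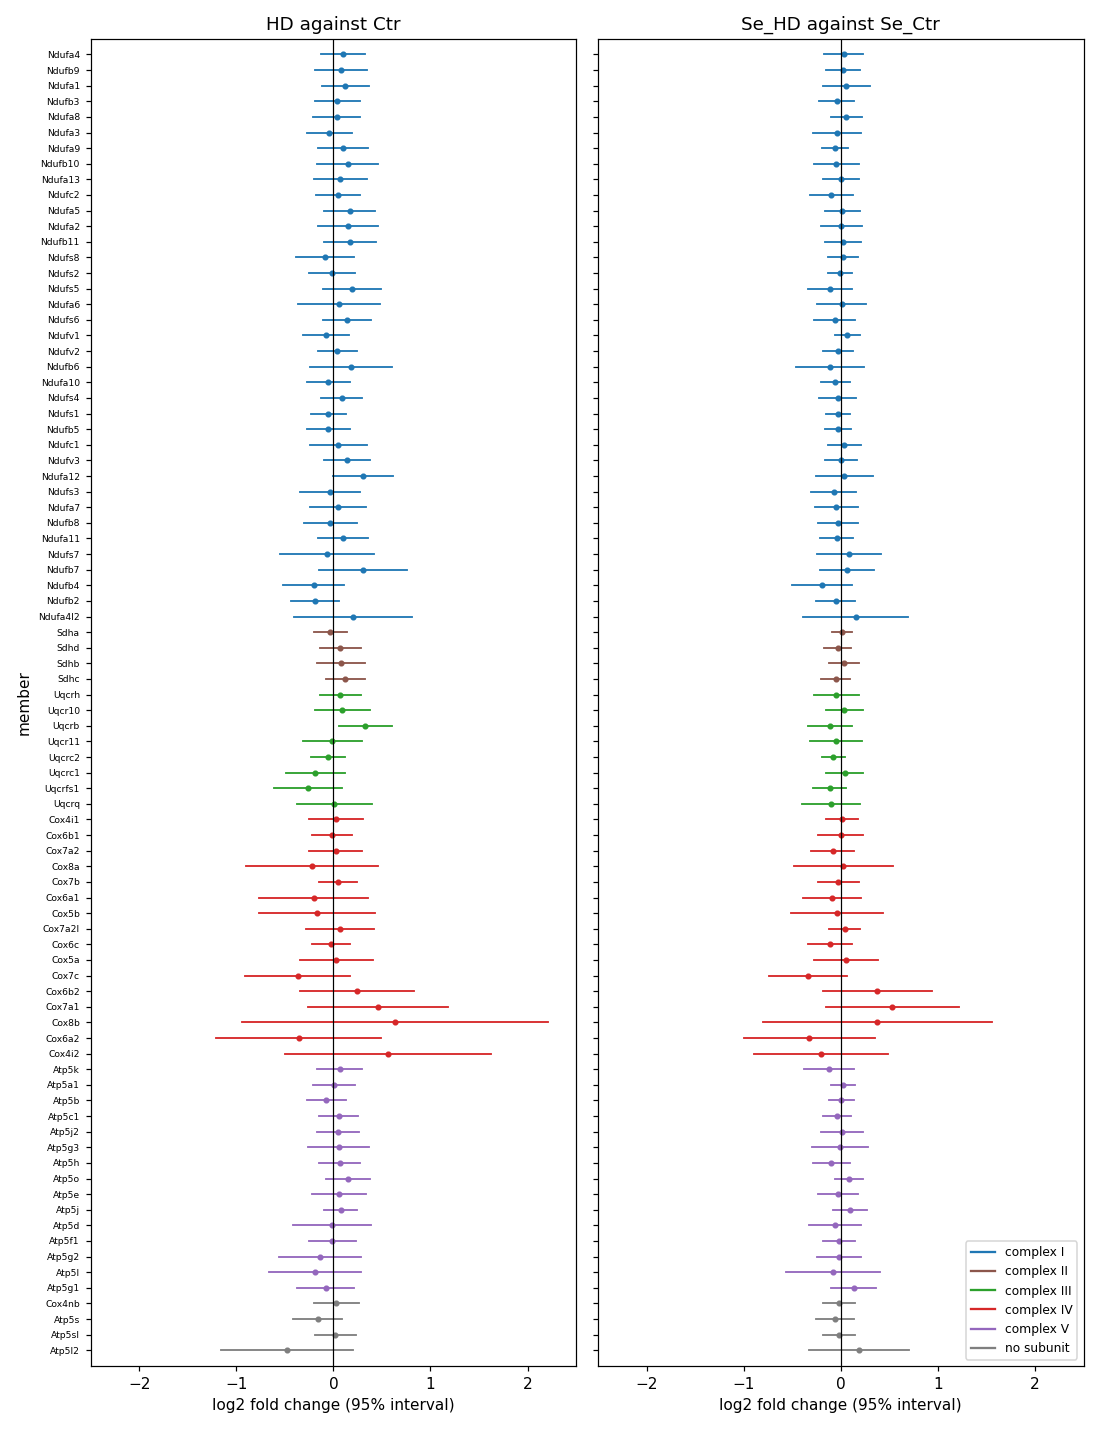
Log2 fold changes (points) with 95% intervals (lines) of the 84 members tested are drawn for HD against Ctr on the left and Se_HD against Se_Ctr on the right, ordered by complex and, within it, from high to low level per kb. Intervals cross 0 for all members but Uqcrb in HD against Ctr and for all members in Se_HD against Se_Ctr, and that of Cox8b in HD against Ctr reaches 2.21.

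Uqcrb, a small subunit of complex III that sits near the ubiquinone site, had the lowest p in HD against Ctr. It lies at chr13:67001553-67006314 on the minus strand (NCBIM37). Its normalized counts were 647, 701, 677, 575 and 701 in Ctr and 1184, 866, 732, 735 and 701 in HD. The 2 groups met at their edges, with 4 of the 5 HD libraries above every Ctr library, and HD replicate 1 stood highest. The log2 fold change was 0.33 ± 0.13 (SE; p = 0.0218, adjusted p = 0.476, limma), the F test over the 3 groups had p = 0.0658, and the exact two-sided permutation test of 5 against 5 libraries gave p = 0.0238. Over the exact tests of 36 named members in 7 comparisons, the lowest adjusted p was 0.50. As 43.0% of its read-length windows have copies at 3 other loci, part of these reads may stem from those loci. Leaving out Ctr replicate 3, HD replicate 2 or HD replicate 4 brought the call of Ndufa12, and leaving out HD replicate 5 that of Uqcrb, with 1 member called each time. The median of 0.04 was 0.0034 without HD replicate 1 and 0.0037 without Ctr replicate 4, with 43 members higher in each case.

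The same contrast was made with selenium in both groups. None of the 84 members was called in Se_HD against Se_Ctr, where 2.06% of all genes were, none had an unadjusted contrast p under 0.05, and edgeR and DESeq2 called none. The median log2 fold change of the members was -0.02, with 35 higher and 49 lower. Intervals were narrower, with 76 of 84 members within 1.5-fold and 82 within 2-fold. Sdha had 2956, 2937, 3076, 3090 and 2945 normalized counts in Se_Ctr and 3032, 2970, 3037, 3099 and 2965 in Se_HD, a log2 fold change of 0.01 ± 0.05. Cox7c, a small complex IV subunit, had the lowest limma p with a log2 fold change of -0.34 ± 0.19 (exact two-sided p = 0.23). Cox7a1, a heart and muscle form of another small complex IV subunit, stood at 0.53 ± 0.33 (exact two-sided p = 0.0397, 0.824 after adjustment), with 7.6, 10.4, 10.6, 2.69 and 9.1 normalized counts in Se_Ctr and 13.0, 9.99, 10.4, 11.4 and 11.2 in Se_HD. The groups of Cox7a1 overlapped, and Se_Ctr replicate 4 was lowest. Without Se_Ctr replicate 4, whose member median was the lowest of the 30 libraries, 3 members were called lower, namely Uqcrb by 0.23, Cox7c by 0.51 and Ndufc2 by 0.21 on the log2 scale, the median moved to -0.08 and 11 members were higher. Each of these 3 had an adjusted p of 0.929 in limma, and the share of 2.06% above is that of the fit with Se_Ctr replicate 4. Without Se_Ctr replicate 3 the median was 0.02 with 48 higher. Of 7 reactive astrocyte markers tested 6 were higher with a median of 0.36, and Gfap and Osmr were called at 0.51 and 0.54. Of 14 microglia markers 11 were higher with a median of 0.09, none called. All 10 choroid plexus markers were higher with a median of 0.75 and all 8 excitatory neuron markers lower with a median of -0.15, none of them called. Their part in the members' values was not tested.

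Of the 4 contrasts of MeHg with its control, the low dose gave the largest median of the members. Of the 84 tested in LD against Ctr, 2 were called, both higher, beside 1.46% of all genes tested. The median log2 fold change was 0.08, against 0.0048 for all genes, and 67 members were higher and 17 lower. The values of complex I were 33 higher and 4 lower with a median of 0.11, and all 4 members of complex II were higher with a median of 0.05. The median depended on single libraries. It was 0.0077 with 45 members higher without LD replicate 4, 0.04 with 61 higher without Ctr replicate 4, and 0.15 with 73 higher without LD replicate 5, which lay lowest. Centring the values within 20 bins of exonic length gave 0.04 with 55 higher. In that setting neither member was called. Markers of other tissues were as follows. All 6 thalamus markers were higher in LD with a median of 0.52, and 2 were called, Synpo2 at 0.81 and Calb2 at 0.59, with summed levels of 1050 to 1507 normalized counts in Ctr, 1097 to 3081 in LD and 1703 in LD replicate 4. All 10 choroid plexus markers were higher with a median of 0.59 and all 6 erythrocyte markers lower with a median of -0.61, none of them called, with 0 and 1 at an unadjusted contrast p under 0.05. Their part in the members' shift was not tested.

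Ndufa12, an accessory subunit of complex I, was the clearer of the 2 members called in LD (chr10:93661700-93684188, plus strand, NCBIM37). It had 238, 203, 254, 234 and 226 normalized counts in Ctr and 257, 345, 299, 363 and 273 in LD. All 5 LD libraries lay above all 5 Ctr libraries. The log2 fold change was 0.40 ± 0.15 (SE; p = 0.0133, adjusted p = 0.999, limma), and the exact two-sided permutation p of 0.00794 is the smallest that 5 against 5 can give, with an adjusted p of 0.50 over all exact tests. In HD its counts were 443, 243, 270, 233 and 279, overlapping those of Ctr, and the log2 fold change was 0.31 ± 0.15 (adjusted p = 0.604, limma). The call in LD was lost without Ctr replicate 2, 4 or 5 or LD replicate 2 or 4, where the log2 fold change lay between 0.34 and 0.41. It was also lost with the replicate block of 6 consecutive library numbers, length bins or no trend, and in the fit over 30 libraries, while edgeR and DESeq2 kept it.

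Cox4i2, the form of the Cox4 subunit known for its oxygen-dependent use in lung and in pericytes, was the other (chr2:152579909-152590773, plus strand, NCBIM37). It is a low gene, with 9.7, 5.1, 9.4, 0 and 6.4 normalized counts in Ctr and 11.5, 12.9, 14.8, 9.9 and 17.4 in LD. The LD libraries were again all above the Ctr libraries, though LD replicate 4 and Ctr replicate 1 were close. The log2 fold change was 1.35 ± 0.51 (SE; p = 0.0147, adjusted p = 0.999, limma; exact p = 0.00794). Without Ctr replicate 4, in which no read was counted, it was 0.74 and not called. The call was also lost without Ctr replicate 2, without any 1 of the 5 LD libraries, with edgeR, DESeq2, a pseudocount of 0.1, length bins or no trend, and in the fit over 30 libraries. None of the 9 pericyte and smooth muscle markers was called in LD, with 1 at an unadjusted contrast p under 0.05, their median log2 fold change was 0.02, none was at 0 in any library, and their summed levels of 2666 to 3446 normalized counts in Ctr and 2556 to 3591 in LD overlapped. Their part in the result was not tested.

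With selenium, no member was called in Se_LD against Se_Ctr, beside 1.46% of all genes, none had an unadjusted contrast p under 0.05, and edgeR and DESeq2 called none. The median log2 fold change was -0.02, and 37 members were higher and 47 lower. Ndufb5, an accessory subunit of complex I, had the lowest contrast p, at -0.13 ± 0.06 on the log2 scale (exact two-sided p = 0.0238), with 527, 522, 566, 473 and 504 normalized counts in Se_Ctr and 485, 468, 452, 469 and 490 in Se_LD. Here too Se_Ctr replicate 4 decided the count. Without it 5 members were called, all lower, namely Ndufc2 by 0.32, Uqcr11 by 0.31, Uqcrb by 0.28, Ndufa13 by 0.21 and Ndufb5 by 0.16 on the log2 scale, and the median was -0.09 with 13 members higher. Each of these 5 had an adjusted p of 0.995 in limma, and the share of 1.46% above is that of the fit with Se_Ctr replicate 4. Without Se_Ctr replicate 3 the median was 0.01 with 45 higher. All 6 thalamus markers were higher in Se_LD with a median of 0.54, and 3 were called, while all 10 choroid plexus markers were lower with a median of -0.97 and none was called. Their part in the members' values was not tested.

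**Figure D3:**
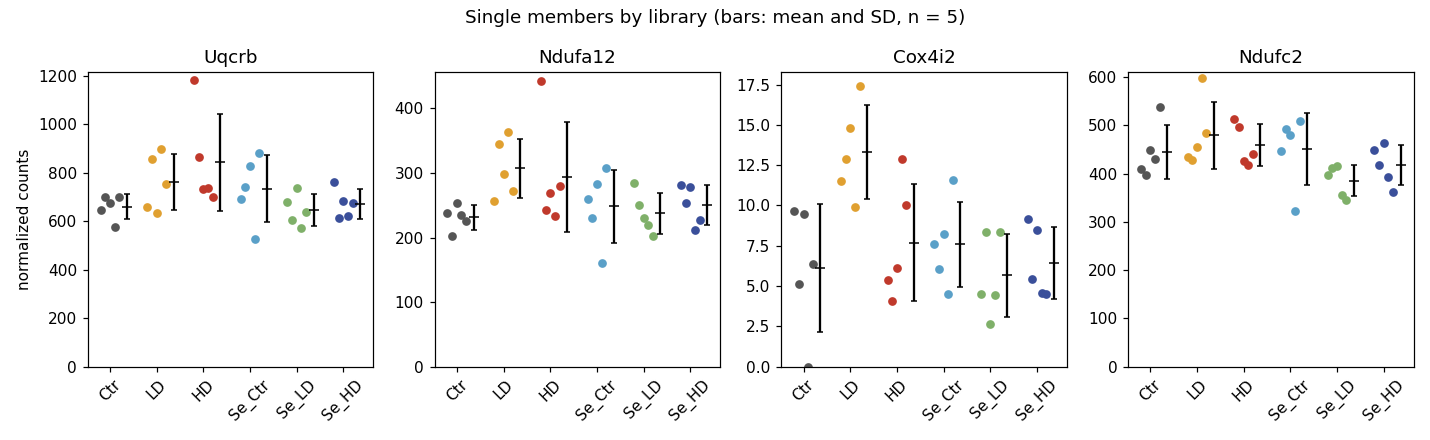
Normalized counts of Uqcrb, Ndufa12, Cox4i2 and Ndufc2 are shown for each library of the 6 groups (points), with the mean and SD of the 5 libraries beside them. HD replicate 1 is highest for Uqcrb at 1184 and for Ndufa12 at 443, and the LD points of Ndufa12 and Cox4i2 lie above all Ctr points.

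Between the diets at the same MeHg label, no member was called. These contrasts share their libraries with those above, and HD and LD share the Ctr libraries, so they are not independent. In Se_Ctr against Ctr none of the 85 members was called, beside 1.3% of all genes, and the only one with an unadjusted contrast p under 0.05 was Uqcrc2, a core protein of complex III. It had 1303, 1526, 1449, 1311 and 1376 normalized counts in Ctr and 1394, 1545, 1576, 1602 and 1558 in Se_Ctr, which gives 0.14 ± 0.07 on the log2 scale (adjusted p = 1.0, limma; exact two-sided p = 0.0476). DESeq2 called 1 member, Uqcrc2, and edgeR none. The median of the members was 0.05, with 59 higher and 26 lower. Without Se_Ctr replicate 4, 1 member was called, Uqcrb, and the median was 0.11. The median was 0.0048 without Ctr replicate 4 and 0.0056 without Se_Ctr replicate 3. In Se_HD against HD none was called, beside 3.59% of all genes, and Uqcrb was again the only member with an unadjusted contrast p under 0.05. It was lower with selenium, at 763, 612, 685, 620 and 675 normalized counts in Se_HD, a log2 fold change of -0.31 ± 0.13 (adjusted p = 0.494, limma; exact two-sided p = 0.0556). edgeR and DESeq2 each called it. Leaving out HD replicate 3, 4 or 5 or Se_HD replicate 1 also brought its call, and leaving out HD replicate 2 that of Uqcrc2. In this contrast 13 of 14 microglia markers were called lower with a list median of -0.86, all 8 reactive astrocyte markers with a median of -1.26 and 3 of 9 astrocyte markers with a median of -0.22, while Gad1 of inhibitory neurons was called higher at 0.42 (adjusted p = 0.016, limma). The summed microglia markers were 3435 to 4067 normalized counts in Se_HD, below the 4253 to 10720 in HD. Their part in the value of Uqcrb was not tested. By the exact test 2 members pointed the other way, Uqcrc1 at 0.25 ± 0.13 (exact two-sided p = 0.0238) and Atp5b at 0.13 ± 0.08 (exact two-sided p = 0.0476), with adjusted p of 0.75 and 0.824. The median of the members was -0.0022, with 42 higher and 43 lower, and 0.03 with values centred within length bins.

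In Se_LD against LD none of the 85 members was called, beside 0.73% of all genes, since no F test over the 6 groups passed. Even so 5 of the 85 members had an unadjusted contrast p under 0.05, all lower in Se_LD, beside 611 of all 21383 genes. They were Ndufc2, Cox4i2, Ndufa12, Uqcr11 and Ndufb5, with log2 fold changes of -0.31, -1.17, -0.37, -0.35 and -0.18, and none had an adjusted p under 0.05. Ndufc2, an accessory subunit of complex I, had 434, 428, 455, 597 and 484 normalized counts in LD and 398, 412, 417, 355 and 346 in Se_LD. All 5 Se_LD libraries were below all 5 LD libraries (exact p = 0.00794), and LD replicate 4 was the highest. DESeq2 called 2 members, Cox4i2 and Ndufa12, and edgeR none. Leaving out LD replicate 1 brought the calls of Ndufa12 and Uqcrb, leaving out LD replicate 3 or Se_LD replicate 3 that of Uqcrb, and leaving out Se_LD replicate 1 that of Ndufa12. The median of the members was -0.05, and between -0.12 and 0.02 over the alternatives tried for it. It was 0.02 without LD replicate 4 and 0.0091 with values centred within length bins.

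Whether the effect of MeHg differed between the diets was tested by interaction terms over the 30 libraries. Here a gene was called by the unadjusted p of the term alone, without the F test, so these counts and shares follow a looser rule than those above. None of the members called in this way had an F test p under 0.05 over the 6 groups. For the high dose 1 of 85 members was called, Uqcrb, beside 4.77% of all genes, with an interaction of -0.44 ± 0.18 on the log2 scale (95% interval -0.81 to -0.08, adjusted p = 0.997, limma). Its mean was 660 ± 52.6 (SD, n = 5) in Ctr, 844 ± 200 in HD, 735 ± 138 in Se_Ctr and 671 ± 60.7 in Se_HD. The median of the members was -0.04, and between -0.12 and 0.01 over the alternatives tried for it. It was 0.01 with values centred within length bins. By the same rule 13 of 14 microglia markers had a negative term that was called, with a list median of -0.99, as did 4 of 8 reactive astrocyte markers, with a median of -1.22, and their part in the term of Uqcrb was not tested. Without HD replicate 1 the term of Uqcrb was -0.31 and no member was called. Without Ctr replicate 2 there were 3 calls, and without Se_Ctr replicate 4 there were 2. For the low dose, a contrast added after the data were seen, 2 members were called, beside 3.75% of all genes. The median of the members was -0.11, with 17 higher and 68 lower, and it was -0.05 with values centred within length bins, -0.03 without LD replicate 4, -0.07 without Ctr replicate 4, -0.06 without Se_Ctr replicate 3, -0.17 without LD replicate 5 and -0.18 without Se_Ctr replicate 4. All 10 choroid plexus markers had a negative term with a median of -1.67, none called and 0 at an unadjusted p under 0.05, and all 6 erythrocyte markers a positive one with a median of 0.77 and 2 called. Their part was not tested. Cox4i2 had an interaction of -1.76 ± 0.63 and Ndufa12 one of -0.44 ± 0.21, both with an adjusted p of 0.998 in limma. The call of Ndufa12 was lost in 16 of the 30 alternatives, at -0.45 to -0.35, among them leaving out Ctr replicate 1, 2, 4 or 5, LD replicate 2, 3 or 4, Se_Ctr replicate 1, 3 or 5 or Se_LD replicate 3, 4 or 5. The term of Cox4i2 was -1.14 without Ctr replicate 4, -0.73 with a pseudocount of 10 and -2.53 with one of 0.1, and it was called in each. The count of calls moved between 1 and 10 as single libraries were left out, with 10 without Se_Ctr replicate 4, 7 without LD replicate 2, 6 without LD replicate 1, 5 without Ctr replicate 5, LD replicate 5 or Se_LD replicate 2, 4 without Ctr replicate 1 or Se_LD replicate 3 and 1 without Ctr replicate 4, Se_Ctr replicate 1, 3 or 5 or Se_LD replicate 4 or 5. Over the 6 groups together no member had an F test p under 0.05, while 6.91% of all genes did. The lowest was that of Uqcrb (adjusted p = 0.752, limma), and the counts by the other tools were 1 with edgeR and 4 with DESeq2. Leaving out Se_Ctr replicate 4 gave 3, and leaving out LD replicate 1 or HD replicate 2 or 4 gave 2.

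Several complex IV subunits exist in pairs, and one form of each pair was far more abundant. Per kb, Cox4i2 reached a median of 0.214% of Cox4i1, Ndufa4l2 0.39% of Ndufa4, Cox7a1, a form of heart and muscle, 1.86% of Cox7a2, Cox6b2, a testis form, 1.92% of Cox6b1, and Cox6a2, the heart and muscle form, 2.22% of Cox6a1. The ratio of Cox4i2 to Cox4i1 was 0.170 ± 0.110% (SD, n = 5) in Ctr and 0.395 ± 0.165% in LD. In the other 4 groups its mean lay between 0.162 and 0.227%. The 3 genes for the proteolipid of complex V, whose mature proteins are the same, were uneven, with Atp5g3 at 612, Atp5g2 at 214 and Atp5g1 at 37.9 normalized counts per kb. Atp5g1 has exons of 4908 bases in all, and 24.0% of its windows have copies in the genome. All 573 windows of Atp5g2 have a copy, so its level may not be that of the gene alone, while Atp5g3 has no copied window. None of the isoform genes named here was called in HD against Ctr or Se_HD against Se_Ctr, and Cox4i2 alone in LD against Ctr.

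The variance of the members between libraries of the same group was shared among them. Over the 81 members with a mean of at least 10, the group means took up a median of 10.5% of the variance of a member, against 15.5% for 11290 other genes of like level. This share is not corrected for fitting 6 means to 30 libraries, which takes up part of the variance without any group effect. It therefore does not measure an effect of the groups. The median SD within groups was 0.19 log2 units for members and 0.20 for those genes. A single component held 40.5% of the within-group variance of the members, against 14.7% for the other genes. The sets differ in number of genes, on which this share depends, and were not matched for exonic length. The shares are therefore not on a like footing. Of the 81 members, 76 correlated positively with the median of the rest over the 30 libraries, with a median r of 0.61. Uqcr10, a small subunit of complex III, was at 0.92, Ndufa13 of complex I at 0.89 and Cox4i1 at 0.85, while Ndufs1 stood at -0.03 and Atp5g1 at -0.33. The median over members, relative to the Ctr mean, was 0.05, 0.02, 0.14, 0.43 and -0.15 log2 units in the LD libraries and 0.06, 0.07, 0.22, -0.27 and 0.11 in the Se_Ctr libraries. LD replicate 4 was thus the highest and Se_Ctr replicate 4 the lowest of the 30. The HD libraries lay between -0.03 and 0.12 and the Ctr libraries between -0.12 and 0.11.

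**Figure D4:**
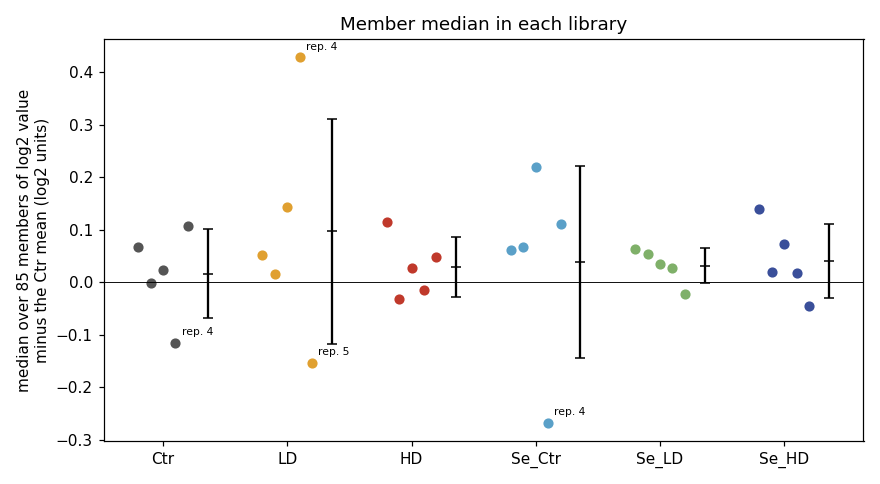
The median over the 85 members of the log2 value minus the gene's Ctr mean is shown for each library (points), with the mean and SD of each group of 5. LD replicate 4 at 0.43 and Se_Ctr replicate 4 at -0.27 lie farthest out, and all 6 groups overlap.

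Other short genes moved in the same libraries. The members have a median exonic length of 1237 bases, against 2893 for all genes. Over the 30 libraries, each taken relative to its group mean, the member median followed that of 1471 other genes with exons under 1500 bases, with r = 0.93 and rho = 0.90 (permutation p = 1e-05 for each, the smallest these permutations can give; adjusted p = 2.5e-05 and 5e-05 over 5 gene sets). Without LD replicate 4 and Se_Ctr replicate 4, the 2 libraries farthest out, r was 0.88. For cytosolic ribosomal protein genes r was 0.77 and rho 0.53 (permutation p = 1e-05 and 0.00318; adjusted p = 2.5e-05 and 0.00795), and r was 0.60 without LD replicate 5 and Se_Ctr replicate 4, the 2 farthest out for that set. For the 13 subunits encoded in mitochondrial DNA r was -0.17 and rho -0.04 (permutation p = 0.361 and 0.816, each also after adjustment). For assembly factors of the complexes r was 0.43 and rho 0.23 (adjusted permutation p = 0.027 and 0.267), and r was 0.11 without LD replicates 2 and 4, the 2 farthest out there. For genes of the tricarboxylic acid cycle r was 0.53 and rho 0.38 (adjusted permutation p = 0.0061 and 0.0678), with r = 0.31 without LD replicate 4 and Se_LD replicate 2. The part of transcript length in the member shifts was not tested beyond the centring within length bins.

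**Figure D5:**
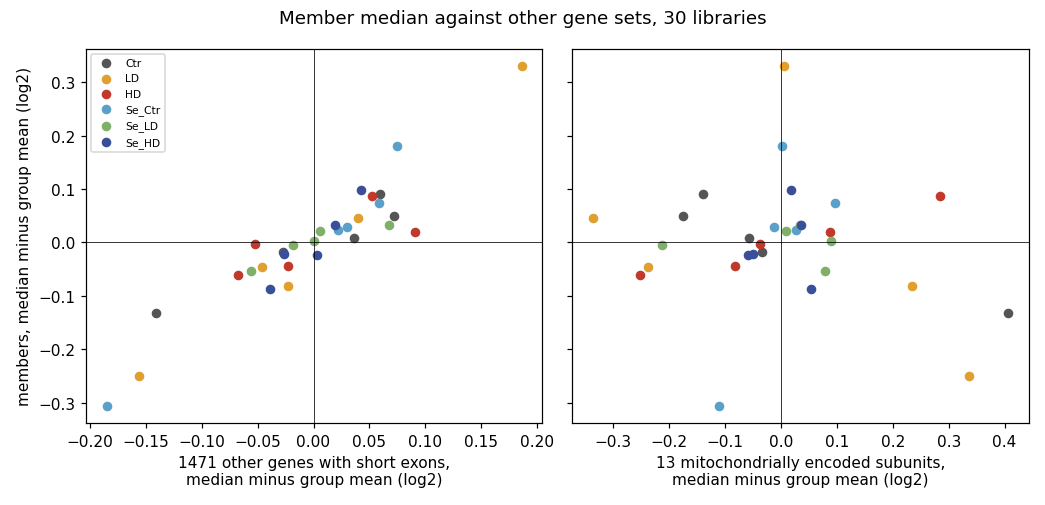
The member median of each of 30 libraries, relative to its group mean in log2 units, is plotted against that of 1471 other genes with short exons (left) and of the 13 mitochondrially encoded subunits (right), coloured by group. The left points lie along a line (r = 0.93) from Se_Ctr replicate 4 at the lower end to LD replicate 4 at the upper end, and the right points scatter (r = -0.17).

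The promoters of the members were searched for the letters of 3 factors known for nuclear genes of respiration. RefSeq windows from 250 bases before to 50 after the start site (GRCm38.p6, the first window of each gene) matched 69 of the 85 members. The NRF1 core GCGCATGCG, on either strand and overlapping itself on the other, was in 8 of 69 windows (11.6%) and in 1.81% of all 27025 windows. The ETS site CCGGAAGT, bound by GABPA among others, was in 5 (7.25%) and in 4% of all. The YY1 site AAGATGGCG was in 7 (10.1%) and in 1.5% of all, and in each of these 7 it lay on the sense strand with its first base 23 to 36 bases into the transcript. Any of the 3 was in 19 of 69 windows (27.5%) and in 6.95% of all. The windows of all genes were not matched to the members for expression or type of promoter. Whether a motif goes with the movement of members between libraries was not tested. The 120 bases before the start site follow for the members most in step with the rest that had a window, Uqcr10 and Ndufa13, for Ndufa12, called in LD, and for 2 that hold a motif there, with capitals marking the ETS site in Uqcr11 at 66 bases before the start and the NRF1 core, on both strands, in Ndufa11 at 60 and 59 bases before it. The first 3 hold none of these letters in the stretch shown. Uqcr11 also has an NRF1 core on the other strand. It begins 5 bases before the start site, runs past the end of the stretch and is not marked.
Uqcr10 (chr11:4704345-4704464, minus strand): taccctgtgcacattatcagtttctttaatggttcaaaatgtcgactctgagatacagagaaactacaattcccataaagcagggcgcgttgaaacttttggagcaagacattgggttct
Ndufa13 (chr8:69902021-69902140, minus strand): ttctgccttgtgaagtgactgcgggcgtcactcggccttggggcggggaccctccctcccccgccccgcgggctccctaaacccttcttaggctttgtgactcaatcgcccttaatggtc
Ndufa12 (chr10:94198915-94199034, plus strand): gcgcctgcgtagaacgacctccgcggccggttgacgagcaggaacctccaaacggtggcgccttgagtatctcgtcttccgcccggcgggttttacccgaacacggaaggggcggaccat
Uqcr11 (chr10:80406822-80406941, minus strand): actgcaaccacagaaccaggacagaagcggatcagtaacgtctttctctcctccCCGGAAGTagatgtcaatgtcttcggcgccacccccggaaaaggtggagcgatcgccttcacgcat
Ndufa11 (chr17:56717642-56717761, plus strand): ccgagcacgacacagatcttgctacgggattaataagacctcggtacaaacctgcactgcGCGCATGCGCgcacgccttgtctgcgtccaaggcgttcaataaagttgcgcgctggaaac

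The rest of the pathway was taken from lists written with earlier results known, and the shares of all genes called in each contrast are those given above. Of the 13 mitochondrially encoded subunits none was called in any of the 9 contrasts, with 3 at an unadjusted contrast p under 0.05, all lower, in Se_LD against LD. Their median log2 fold change was 0.11 in HD and 0.22 in LD, with 12 of 13 higher in LD and values up to 0.45, -0.03 in Se_HD and -0.08 in Se_LD, and their library medians overlapped between Ctr, from -0.18 to 0.40, and LD, from -0.10 to 0.57. Of 30 assembly factors 2 were called over the 9 contrasts, Lrpprc, which stabilizes mitochondrial mRNA, at 0.19 ± 0.08 in Se_HD against HD and Tmem126b, of complex I assembly, at -0.26 ± 0.12 in the low-dose interaction. Of 16 tricarboxylic acid cycle and pyruvate dehydrogenase genes 2 were called, Suclg2, a subunit of a succinyl-CoA ligase, at 0.39 ± 0.14 in HD and 0.32 ± 0.12 in Se_HD against its control, and Pdhb, of pyruvate dehydrogenase, at -0.29 ± 0.10 in the low-dose interaction. Of 16 regulators of mitochondrial gene expression and 3 ATP synthase regulators none was called in any of the 9 contrasts, with 1 of each at an unadjusted contrast p under 0.05, in LD against Ctr. Of the 3 genes for cytochrome c, cytochrome c1 and the acyl carrier subunit that the symbol rule leaves out, only Cycs, cytochrome c, was called, with log2 fold changes of -0.22 ± 0.07 in Se_LD against Se_Ctr and -0.27 ± 0.10 in Se_LD against LD, and a low-dose interaction of -0.43 ± 0.13.

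Over the whole series, reads on genes were between 5768208 and 11510521 per library. All 8 markers of excitatory neurons were above 0 in every library, among them Prox1 of dentate granule cells at 459 to 1341 normalized counts. The summed level of 10 choroid plexus markers varied from 315 to 38710 normalized counts between libraries, with ranges of 873 to 32090 in Ctr and 7191 to 30420 in HD. It was 612 in LD replicate 4, and 6460 in Se_Ctr replicate 4. Its part in the members' values was not tested. In bulk tissue fewer cells of a type and less RNA per cell cannot be told apart.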

How the data were processed

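The authors sequenced polyadenylated hippocampal RNA as single-end reads of 75 bases from stranded libraries. Reads were trimmed with Trim Galore 0.4.2, mapped with HISAT2 2.0.4 to NCBIM37 and counted per gene with featureCounts. The deposited values are signal values, read counts divided by DESeq2 1.18.1 size factors after rows with a sum under 10 reads were removed. Strand and multi-mapping settings are not given in the sources used here. Reads on genes were 5768208 to 11510521 per library. After multiplication by the factor of its library 100% of values were whole reads within 0.01, so reads were recovered for edgeR 4.0.16 and DESeq2 1.42.0.

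The deposited log2(value + 1) was fitted with limma 3.58.1 (trend) over Ctr, LD and HD, over the 3 selenium groups and over all 30 libraries, for genes with a sum of at least 10 in the fit (20031, 19679 and 21383 genes). Adjusted p-values are Benjamini-Hochberg over all genes tested. The members and lists were chosen with earlier results of these data known. Genes were named by a rule: the 4 members with the lowest p in each of 7 contrasts and in the F test, members called in HD or Se_HD with groups apart, 8 reference subunits and the isoform families. Members outside it (Uqcr10, Ndufa11, Ndufa13, Atp5l, Cox5b and Cox7b2) were named after their values were seen. Alternatives were pseudocounts of 0.1 and 10, no filter, quantile normalization, centring within 20 bins of exonic length, no trend, both count tools, a block of 6 consecutive library numbers, the contrast alone, 1 fit over 30 libraries and leaving out each library. Chosen after seeing the data were the low-dose interaction and leaving out together the 4 libraries whose median over other short genes lay more than 0.1 log2 units from their group mean. The fit was tested on simulated data. Group-level precision is limited by 5 libraries per group. Python 3.11.15 and R 4.3.3 were used.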

Additional observations from a re-analysis of the deposited data

Results flagged for a closer look

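In groups of 5 libraries, a library was singled out where its gap to the nearest other library, divided by the range of the group, was above 0.71. This gave 17 cases. Chance gives about 1 in 20 of the groups tested, which is 12.6 here. No explanation was tested for any of them.

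LD replicate 4 was apart for 3 members. Atp5g1 was lowest there at 136 normalized counts against 187 to 205 (ratio 0.731), Cox7b highest at 1475 against 1091 to 1191 (0.74) and Ndufv2 highest at 967 against 692 to 750 (0.786). Ctr replicate 4 was lowest for Cox4i1 at 2171 against 2991 to 3218 (0.783), for Sdha at 2675 against 2916 to 2989 (0.768) and for the complex II median at -0.22 against 0.01 to 0.06 log2 units (0.806). Se_Ctr replicate 4 was lowest for Cox4i1 at 2328 against 2956 to 3208 (0.714) and for the complex IV median at -0.41 against 0.04 to 0.20 (0.741).

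Among HD libraries, Ndufa12 was highest in replicate 1 at 443 against 233 to 279 normalized counts (0.78), Sdhb in replicate 2 at 883 against 657 to 699 (0.813) and Cox6a1 in replicate 5 at 747 against 313 to 418 (0.757). Among Se_Ctr libraries, Uqcrc2 was lowest in replicate 1 at 1394 against 1545 to 1602 (0.726), Cox6a2 highest in replicate 2 at 14.7 against 8.07 to 9.38 (0.802) and Uqcrfs1 highest in replicate 3 at 618 against 498 to 530 (0.734). In Se_LD replicate 2, Uqcrc1 was highest at 1151 against 775 to 867 (0.754) and the complex V median lowest at -0.09 against 0.01 to 0.05 (0.723). The complex V median was highest in Ctr replicate 5 at 0.08 against -0.02 to -0.00071 (0.771).

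An unadjusted p under 0.05 of the limma interaction of MeHg and diet was found for 3 members. They were 1 of 85 at the high dose, beside 4.77% of all genes, and 2 of 85 at the low dose, beside 3.75%. The term was -0.44 for Uqcrb at the high dose (adjusted p = 0.997), and at the low dose -1.76 for Cox4i2 (adjusted p = 0.998) and -0.44 for Ndufa12 (adjusted p = 0.998).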

How the results depend on the processing

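No value changed from a called direction to the opposite one. HD against Ctr had 0 members called and 1 by the contrast alone, with quantile normalization, edgeR or DESeq2. LD against Ctr had 2, but 1 with a pseudocount of 0.1, edgeR or DESeq2 (Ndufa12) or the replicate block (Cox4i2), and 0 with length bins, no trend, 1 fit over 30 libraries or the 4 libraries that stand apart left out. Se_Ctr against Ctr had 0, and 1 by the contrast alone or DESeq2. Se_HD against HD had 0, and 1 by the contrast alone, quantile normalization, edgeR, DESeq2 or without the libraries apart. Se_LD against LD had 0, but 5 by the contrast alone (beside 611 of 21383 genes), 2 with DESeq2 and 1 with a pseudocount of 10 or the replicate block. Without the libraries apart Se_HD against Se_Ctr had 3, Se_LD against Se_Ctr 5 and the high-dose interaction 3. The low-dose interaction had 2, but 4 with quantile normalization, edgeR or DESeq2 and 1 with no trend. The F test over 6 groups had 0, but 4 with DESeq2, 2 without the libraries apart and 1 with a pseudocount of 10, quantile normalization, edgeR or the replicate block. The cause was not tested.

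Leaving out 1 library moved the counts between 0 and 1 for HD against Ctr, Se_Ctr against Ctr and Se_HD against HD, 0 and 2 for LD against Ctr and Se_LD against LD, 0 and 3 for Se_HD against Se_Ctr, the high-dose interaction and the F test, 0 and 5 for Se_LD against Se_Ctr and 1 and 10 for the low-dose interaction. With values centred within length bins, the medians of Se_LD against LD, Se_HD against HD and the high-dose interaction were 0.0091, 0.03 and 0.01, of the opposite sign to those reported. For the replicate block of 6 consecutive library numbers, pairs of the same set had a median r of -0.02 (75 pairs, -0.30 to 0.35) and other pairs one of -0.0034 (300 pairs), and no label says that a set marks a shared batch. Of the 4 libraries that stand apart, 3 (Ctr, LD and Se_Ctr replicate 4) have the numbers 25, 26 and 28 and fall in the same set. Low counts limit Cox4i2, whose log2 fold change in LD ranged from 0.56 to 2.06.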
